A study of Mus musculus with 12 samples.

Results

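The transcripts described here are those of 10 genes of inflammatory cytokine, IL-6 family and TWEAK signaling, taken by their symbols from the 37748 genes in the deposited table. They are the ligands Il6, Lif, Osm, Tnf and Il1b, the receptors Il6ra, Osmr and Tnfrsf12a, the transcription factor Stat3 and its inhibitor Socs3. They were measured by poly(A) RNA-seq in gastrocnemius, a calf muscle, of 12 mice from a study of mouse models of facioscapulohumeral muscular dystrophy (FSHD), a myopathy linked to misexpression of the transcription factor DUX4 in skeletal muscle. The 12 mice formed 4 groups of 3.

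The ACTA1-MCM/+ control mice carried MerCreMer, a tamoxifen (TMX)-inducible Cre recombinase made from the skeletal muscle actin promoter. The FLExD/+ mice carried the conditional DUX4-fl transgene in the Rosa26 locus and no Cre. By their labels neither group was given TMX. The moderate and severe groups were bi-transgenic, with MerCreMer and DUX4-fl together. Moderate mice had 1 intraperitoneal TMX injection of 5 mg/kg, and severe mice had 2 of 10 mg/kg on consecutive days. All muscles were taken at 13 weeks of age, on day 9 after TMX for the models. DUX4 induction, the presence of both transgenes and TMX therefore cannot be told apart in a comparison with controls. Severe and moderate mice differed in TMX dose and number of injections, so DUX4 induction and TMX cannot be told apart between them either. Recombination in these models is mosaic and limited to muscle, the sex of the mice is not in the labels, and each group is 3 mice with 1 library each. The sample labels describe the FLExD/+ group as having mild pathology and the TMX protocol calls the 5 mg/kg group mild, where the paper writes moderate. The paper's names are used.

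Cytokines of the IL-6 family signal through cell-surface complexes that contain gp130, the product of Il6st. IL-6 first binds IL-6 receptor alpha, oncostatin M (OSM) uses gp130 together with the product of Osmr or Lifr, and leukemia inhibitory factor (LIF) uses gp130 with the product of Lifr. Receptor engagement activates Janus kinases, which phosphorylate STAT3, and STAT3 induces Socs3, a feedback inhibitor of the same kinases. TNF and IL-1 beta, both made mainly by myeloid cells, and TWEAK, which binds Fn14 (encoded by Tnfrsf12a), signal to NF-kB. In muscle, Fn14 is low in healthy adult fibers and is known to be induced by injury, and IL-6, LIF and OSM are known to act on muscle stem cells and immune cells during repair.

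Total counts were 23796902 to 29136403 per mouse. Levels are CPM, counts scaled to a common total, of a library size adjusted with TMM factors, which were 0.706 to 0.724 in ACTA1-MCM/+, 0.708 to 0.760 in FLExD/+, 1.06 to 1.13 in moderate and 1.69 to 1.87 in severe libraries. At these depths 3 counts were worth 0.0676 to 0.155 CPM, and this floor covers counting error only. The factors moved with the 7 abundant myofiber transcripts on the marker list, whose summed level was 124296 to 168208 CPM in control and 7998 to 14558 CPM in severe muscle. Without the factors, all tested genes were shifted upward by a median log2 value of 0.65 in moderate and 1.39 in severe muscle against control, and 0.72 in severe against moderate. With them the shifts were 0.04, 0.08 and 0.02, so every change below is relative to the bulk of transcripts. As a check of the labels, the DUX4-responsive gene Wfdc3 (ENSMUSG00000076434) had 0.228 ± 0.137 CPM in control, 0.211 ± 0.169 in FLExD/+, 76.3 ± 13.4 in moderate and 87.5 ± 26.7 in severe muscle (SD, n = 3). The table holds another identifier under the same symbol, ENSMUSG00000039951, with 0 to 5 counts per library, which was too low to test. Trim36, another DUX4-responsive gene, had 0.719 ± 0.132, 0.864 ± 0.137, 1.56 ± 0.188 and 2.32 ± 0.553 CPM in the same order.

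Of the 10 genes, 9 were abundant enough to be tested with edgeR, and all 9 were called higher in both models than in ACTA1-MCM/+ muscle. To be called, a gene needed a log2 fold change of at least 0.5 in size beside an adjusted p below 0.05. Over all 16679 tested genes, 24.4% were called higher and 17.0% lower in moderate muscle, and 32.9% were called higher and 27.9% lower in severe muscle. Tnf, Il6, Il1b and Osm reached 10 counts only in libraries of the models and entered the test through those libraries, so their direction carries no weight as support. The other 5 tested genes, Stat3, Osmr, Il6ra, Socs3 and Tnfrsf12a, had at least 10 counts in all 12 libraries. These 5 had a median log2 fold change of 1.22 in moderate and 1.62 in severe muscle. Each of these 5 was higher in both models with no overlap with ACTA1-MCM/+ mice. With Tnf, Il6, Il1b and Osm counted in, this held for 8 of the 9 in moderate and 9 in severe muscle. Over all tested genes, 32.6% in moderate and 40.0% in severe muscle were higher with no overlap, and 28.5% and 34.9% were lower. In bulk muscle, more cells of a type and more RNA per cell cannot be told apart.

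**Figure D1:**
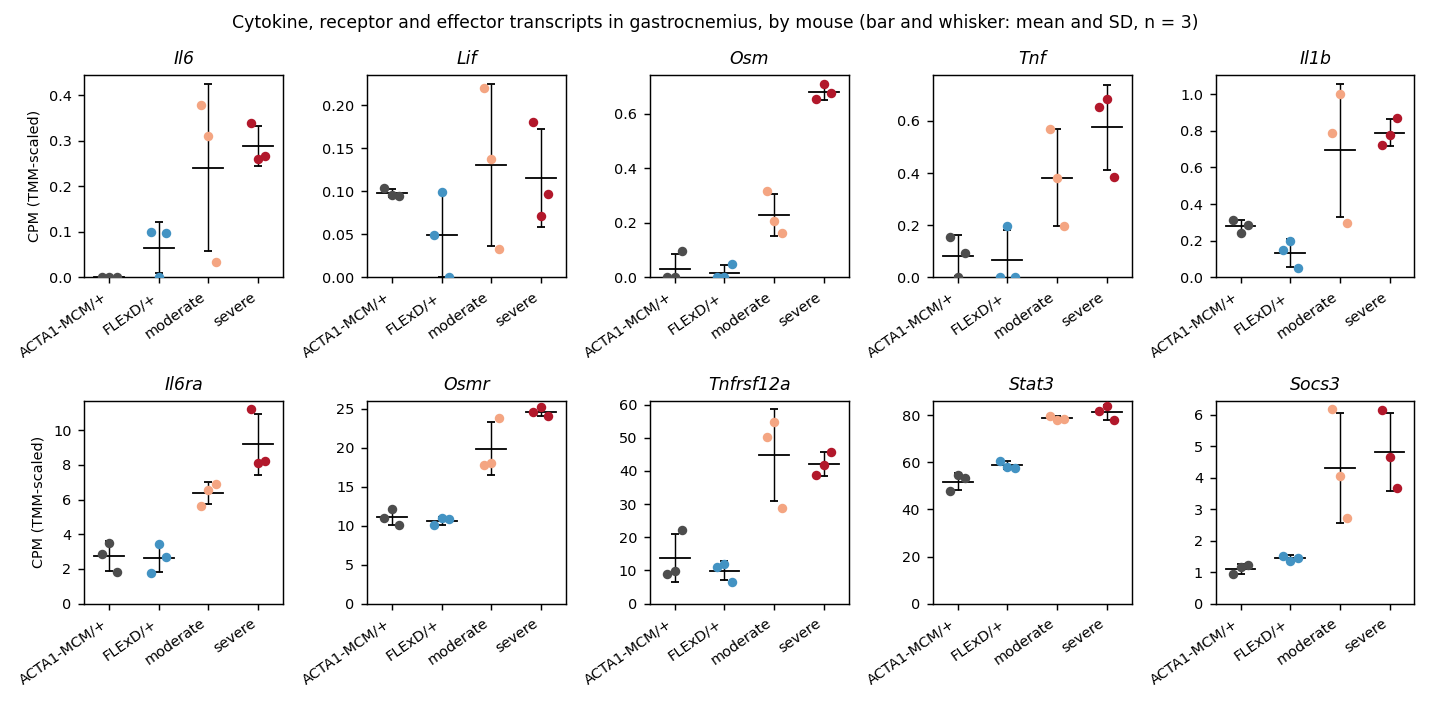
Level of each of the 10 transcripts in each mouse (CPM, TMM-scaled; linear axes starting at 0), with 1 point per mouse and a bar and whisker for the mean and SD of 3 mice per group. Osm, Il6ra, Osmr, Stat3, Socs3 and Tnfrsf12a lie higher in all 6 model mice than in all 6 single-transgenic mice, while the moderate mice spread widely for Il6, Tnf, Il1b, Socs3 and Tnfrsf12a.

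The ligands were rare transcripts. Values are given per mouse in the order 1127, 1246 and 1349 (ACTA1-MCM/+), 1358, 1367 and 1378 (FLExD/+), 1236, 1308 and 1331 (moderate) and 1047, 1066 and 1079 (severe). Il6 (GRCm38 chr5:30013114-30019981, plus strand), which encodes interleukin 6, had 0, 0 and 0 counts in ACTA1-MCM/+, 2, 0 and 2 in FLExD/+, 12, 9 and 1 in moderate and 15, 11 and 11 in severe mice. Moderate mouse 1331, with 1 count, lay within the range of the FLExD/+ mice, and the other 5 model mice lay above all single-transgenic mice. Against a floor of 3 counts in each control library, Il6 was at least 1.63-fold higher in moderate (adjusted p = 0.00881) and at least 1.95-fold higher in severe muscle (adjusted p = 0.003165). Set against FLExD/+ in place of ACTA1-MCM/+, the log2 fold change of Il6 was 1.81 in the moderate model with an adjusted p of 0.108, and 2.07 in the severe model with an adjusted p of 0.0424. The call in the moderate model was thus lost with that control group.

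The 250 bases before the annotated start of Il6 are shown because they hold matches to binding elements of the effectors of TNF and IL-1 signaling. They lie at chr5:30012864-30013113 on the plus strand of GRCm38.p6 (RefSeq), with no annotated exon inside. Capitals mark an AP-1 element 249 to 243 bases and a kappaB element 44 to 35 bases before the start.
Il6: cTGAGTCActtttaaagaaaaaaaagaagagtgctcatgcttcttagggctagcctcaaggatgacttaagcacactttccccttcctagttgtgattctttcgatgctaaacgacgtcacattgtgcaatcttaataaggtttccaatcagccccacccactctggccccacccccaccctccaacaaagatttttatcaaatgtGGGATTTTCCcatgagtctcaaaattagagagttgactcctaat
Windows of 250 bases before the start were searched on both strands for TGANTCA (AP-1), for GGG and TTTCC with 2 bases of any kind between them (kappaB), and for TTCNNNGAA (STAT). The matches do not overlap here. In 32851 such windows over all genes, 6.75%, 1.41% and 7.02% held them. A RefSeq window was found for 9 of the 10 genes, all but Osm. Of these, the windows of Il6, Lif and Socs3 held a match, which is a description of letters and not of binding. All 250 bases of the Il6ra and Osmr windows lie in annotated exons. The RefSeq start of Osmr is 656 bases downstream of the start of its GENCODE gene span, so its window lies inside that span.

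Osm (chr11:4236420-4241026, plus strand), which encodes oncostatin M, had 0, 0 and 2 counts in ACTA1-MCM/+, 0, 0 and 1 in FLExD/+, 10, 6 and 5 in moderate and 29, 30 and 28 in severe mice. The single-transgenic, moderate and severe mice did not overlap in CPM, and the severe mice were close to each other. The summed counts of 21 in moderate and 2 in control mice gave a depth-adjusted ratio of 7.03 (95% exact binomial interval 1.72 to 61.8, counting error only). For the 87 counts in severe mice the ratio was 20.8 (interval 5.58 to 174.1). Both were called (log2 fold change 2.66 ± 0.82 SE, adjusted p = 0.0133 and 4.21 ± 0.67 SE, adjusted p = 5.55e-05). The call in the moderate model was lost without control mouse 1127 (log2 fold change 2.14, adjusted p = 0.0549) and without control mouse 1246 (2.09, adjusted p = 0.0571). Without control mouse 1349, which held both control counts, the fitted values were 5.75 and 7.32, which are not bounds.

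Lif (chr11:4257557-4272514, plus strand), the neighbor of Osm on chromosome 11, encodes leukemia inhibitory factor. It had 2, 2 and 2 counts in ACTA1-MCM/+, 1, 2 and 0 in FLExD/+, 7, 4 and 1 in moderate and 8, 3 and 4 in severe mice. The groups overlapped in CPM in every comparison, and no library reached 10 counts, so Lif was not in the test. Depth-adjusted ratios to control were 1.34 (interval 0.465 to 4.35) in moderate and 1.19 (interval 0.437 to 3.75) in severe muscle. Tested with no filter on low counts, its log2 fold changes were 0.46 (adjusted p = 0.737) and 0.34 (adjusted p = 0.766). A difference in Lif was not detectable at this depth.

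Tnf (chr17:35199381-35202007, minus strand) encodes tumor necrosis factor, an inflammatory cytokine. It had 3, 0 and 2 counts in ACTA1-MCM/+, 0, 4 and 0 in FLExD/+, 18, 11 and 6 in moderate and 29, 29 and 16 in severe mice. All model mice lay above the ACTA1-MCM/+ mice in CPM, but FLExD/+ mouse 1367 reached 0.198 CPM, slightly above the 0.196 CPM of moderate mouse 1331. Depth-adjusted ratios to control were 4.69 (interval 1.83 to 15.3) in moderate and 7.06 (interval 2.89 to 22.4) in severe muscle. The log2 fold changes were 2.16 ± 0.83 (SE, adjusted p = 0.0406) and 2.75 ± 0.77 (SE, adjusted p = 0.00515). In the moderate model the call was lost without control mouse 1246 (1.56) or 1349 (2.25) and without moderate mouse 1236 (1.75) or 1308 (2.17), with adjusted p up to 0.143. Without control mouse 1127 the values were 2.87 in moderate and 3.47 in severe, and without control mouse 1246 the severe value was 2.16, and these calls held.

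Il1b (chr2:129364570-129371139, minus strand) encodes interleukin 1 beta. It had 6, 5 and 6 counts in ACTA1-MCM/+, 3, 4 and 1 in FLExD/+, 25, 29 and 9 in moderate and 32, 33 and 36 in severe mice. The 9 counts of moderate mouse 1331 (0.294 CPM) fell within the control range of 0.241 to 0.311 CPM, and the other model mice lay above it. The log2 fold changes were 1.30 ± 0.46 (SE, adjusted p = 0.0273) in moderate and 1.49 ± 0.44 (SE, adjusted p = 0.00763) in severe muscle. The moderate call was lost without any of control mice 1127 (1.35), 1246 (1.18) and 1349 (1.29) and without moderate mouse 1236 (1.196) or 1308 (0.96), with adjusted p up to 0.118. Exons of Il1b share 25 bases with the antisense gene Il1bos, and the strandedness of the libraries is not given, so reads there cannot be assigned to a strand.

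The receptors were better measured. Il6ra (chr3:89864059-89913196, minus strand), which encodes the IL-6 binding chain, had 2.85, 3.52 and 1.80 CPM in ACTA1-MCM/+, 1.77, 3.42 and 2.70 in FLExD/+, 5.65, 6.55 and 6.89 in moderate and 11.2, 8.11 and 8.24 in severe mice. The moderate mice lay above all single-transgenic mice and the severe mice above all moderate mice. Il6ra rose 2.34-fold in moderate (log2 fold change 1.22 ± 0.24 SE, adjusted p = 0.000766) and 3.38-fold in severe muscle (1.76 ± 0.24 SE, adjusted p = 1.42e-05). Its exons share 242 bases with the antisense gene Gm42809. Osmr (chr15:6813577-6874969, minus strand) encodes a receptor chain for OSM. Osmr had 10.9, 12.1 and 10.1 CPM in ACTA1-MCM/+, 10.1, 11.01 and 10.8 in FLExD/+, 17.8, 18.1 and 23.9 in moderate and 24.6, 25.3 and 24.2 in severe mice. The order of the groups was the same as for Il6ra, again with no overlap. Osmr rose 1.80-fold in moderate (0.85 ± 0.12 SE, adjusted p = 2.88e-05) and 2.23-fold in severe muscle (1.16 ± 0.11 SE, adjusted p = 5.13e-07). Its deposited counts were not whole numbers, because RSEM divides reads that map to several transcripts.

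The transcripts of gp130 and of the LIF receptor chain, which OSM can also use, did not follow these receptors. Il6st, which encodes gp130, had 224, 218 and 244 CPM in ACTA1-MCM/+, 182, 181 and 186 in moderate and 145.6, 169.8 and 169.5 in severe mice, with no overlap between control and either model. Its log2 fold change was -0.32 ± 0.10 (SE, adjusted p = 0.0119) in moderate, below the fold threshold, and -0.50 ± 0.10 (SE, adjusted p = 0.000336) in severe muscle, where it was called lower. That call rested on the margin of the fold threshold and was lost without control mouse 1349 or severe mouse 1047, with values down to -0.43, and it turned to a called rise of 0.80 when library size alone was used. Lifr, the LIF receptor chain, had 124.2, 137.2 and 109.5 CPM in ACTA1-MCM/+, 69.6, 69.2 and 91.7 in moderate and 63.1, 69.6 and 76.3 in severe mice. Lifr was called lower in both models (log2 fold change -0.69 ± 0.12 SE, adjusted p = 0.000302 and -0.83 ± 0.12 SE, adjusted p = 2.95e-05), and with library size alone its values were -0.08 and 0.47, neither called.

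Tnfrsf12a (chr17:23675445-23677468, minus strand), which encodes the TWEAK receptor Fn14, had 9.01, 9.92 and 22.1 CPM in ACTA1-MCM/+, 10.9, 11.997 and 6.61 in FLExD/+, 50.4, 54.8 and 28.9 in moderate and 38.6, 41.9 and 45.7 in severe mice. All 6 model mice lay above all 6 single-transgenic mice, and control mouse 1349 and moderate mouse 1331 approached each other. Tnfrsf12a rose 3.25-fold in moderate (log2 fold change 1.70 ± 0.37 SE, adjusted p = 0.003185) and 3.06-fold in severe muscle (1.62 ± 0.37 SE, adjusted p = 0.00276). Without control mouse 1349 the values were 2.20 and 2.13. That mouse also had the highest summed level of fibro-adipogenic progenitor markers among controls (1013 CPM, against a lowest of 470.1). The spread of this sum lay mainly in Col1a1, with 54.6 to 549.0 CPM in ACTA1-MCM/+ mice, where Dcn had 308.0 to 341.4 CPM. The part of this in the Tnfrsf12a level of mouse 1349 was not tested.

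The bases upstream of Tnfrsf12a are shown because it had the highest level per length of the 10 genes in both models and held none of the 3 motifs. They are the 231 of 250 bases at chr17:23677469-23677699 (minus strand, GRCm38.p6, RefSeq) that lie outside annotated exons.
Tnfrsf12a: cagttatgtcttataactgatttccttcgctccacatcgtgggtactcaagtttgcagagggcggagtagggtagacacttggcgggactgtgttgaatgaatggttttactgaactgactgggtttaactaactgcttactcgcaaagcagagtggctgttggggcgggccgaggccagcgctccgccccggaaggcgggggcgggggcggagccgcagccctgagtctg
The absence of a match says only that these letters are not in the window.

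The ligand of Fn14 was read beside it. Tnfsf12, which encodes TWEAK, had 5.18, 8.14 and 6.40 CPM in ACTA1-MCM/+, 6.49, 5.45 and 5.45 in FLExD/+, 9.09, 8.86 and 9.37 in moderate and 10.3, 9.01 and 8.89 in severe mice. The groups of each model lay above the single-transgenic groups by a narrow margin. The log2 fold change was 0.47 ± 0.14 (SE, adjusted p = 0.0136) in moderate, under the fold threshold, and 0.51 ± 0.14 (SE, adjusted p = 0.00499) in severe muscle, called higher. The severe call was lost without control mouse 1127 or 1349 or severe mouse 1047, with values down to 0.36, and with median-of-ratios size factors (0.49).

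Stat3 (chr11:100885098-100939540, minus strand), the transcription factor downstream of gp130, had 922 to 3636 counts in every library. Its levels were 47.8, 54.5 and 53.3 CPM in ACTA1-MCM/+, 60.8, 58.2 and 57.8 in FLExD/+, 79.8, 78.2 and 78.6 in moderate and 82.0, 84.0 and 77.9 in severe mice. Both models lay above both single-transgenic groups, and the models overlapped each other. Stat3 rose 1.52-fold in moderate (log2 fold change 0.60 ± 0.08 SE, adjusted p = 1.25e-05) and 1.57-fold in severe muscle (0.65 ± 0.08 SE, adjusted p = 2.6e-06). Set against FLExD/+ in place of ACTA1-MCM/+, the log2 values were 0.42 and 0.46, under the fold threshold, with adjusted p of 0.000305 and 6.73e-05. Exons of Stat3 and the antisense neighbor Stat5a share 72 bases.

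Socs3 (chr11:117966079-117970047, minus strand), the feedback inhibitor induced by STAT3, had 0.933, 1.16 and 1.23 CPM in ACTA1-MCM/+, 1.53, 1.34 and 1.45 in FLExD/+, 6.18, 4.07 and 2.71 in moderate and 6.15, 4.65 and 3.67 in severe mice. All model mice lay above all single-transgenic mice, and the moderate and severe mice covered nearly the same range. Socs3 rose 3.89-fold in moderate (log2 fold change 1.96 ± 0.31 SE, adjusted p = 9.54e-05) and 4.34-fold in severe muscle (2.12 ± 0.30 SE, adjusted p = 2.01e-05). Set against FLExD/+, the values were 1.59 and 1.75, both called.

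The bases upstream of Socs3 are shown because they hold a STAT element in a gene that STAT3 is known to induce. They are the 165 of 250 bases at chr11:117969452-117969616 (minus strand, GRCm38.p6, RefSeq) farthest from the RefSeq start, and they lie outside annotated exons. That start lies 681 bases downstream of the start of the GENCODE gene span given above, and the stretch is in an intron of the GENCODE transcript that begins there. Capitals mark the element, 154 to 146 bases before the RefSeq start.
Socs3: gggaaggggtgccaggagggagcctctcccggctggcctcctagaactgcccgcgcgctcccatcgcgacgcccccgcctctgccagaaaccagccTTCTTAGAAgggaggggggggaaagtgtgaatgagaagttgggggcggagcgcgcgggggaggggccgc
The pattern, TTCNNNGAA, was in 7.02% of all windows of this length.

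Per length, as length-scaled transcript shares (TPM), Tnfrsf12a was the highest of the 10 in both models, with 82.04 ± 25.9 TPM in moderate and 126.1 ± 4.81 in severe muscle (SD, n = 3). The TPM hold no factor between libraries, so they rank genes within a group and do not compare groups. With TMM scaling, Tnfrsf12a had a log2 fold change of -0.09 in severe against moderate muscle, not called. In the single-transgenic groups its range met that of Stat3, with 11.81 to 29.6 TPM against 10.59 to 12.29 in ACTA1-MCM/+ and 9.88 to 15.54 against 12.55 to 14.49 in FLExD/+, and the value of 29.6 was that of control mouse 1349. In severe muscle Stat3 followed with 42.3 ± 4.23 TPM, Osmr with 13.4 ± 1.52, Socs3 with 9.75 ± 3.08 and Il6ra with 6.36 ± 1.26. Osmr and Socs3 overlapped, as did Socs3 and Il6ra, so that their order is not settled by these mice. The ligands followed with 1.51 ± 0.0493 TPM for Il1b, 1.17 ± 0.388 for Tnf, 1.00 ± 0.147 for Osm, 0.720 ± 0.102 for Il6 and 0.417 ± 0.168 for Lif. Of neighbors among the ligands, Osm (0.87 to 1.16 TPM) and Il6 (0.61 to 0.81 TPM) were the pair whose ranges did not meet. In ACTA1-MCM/+ muscle the ligands had means of 0.173 to 0.480 TPM. Since 164142 of the 164417 entries with 0 counts have a TPM above 0, TPM at this level do not separate low from absent.

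**Figure D2:**
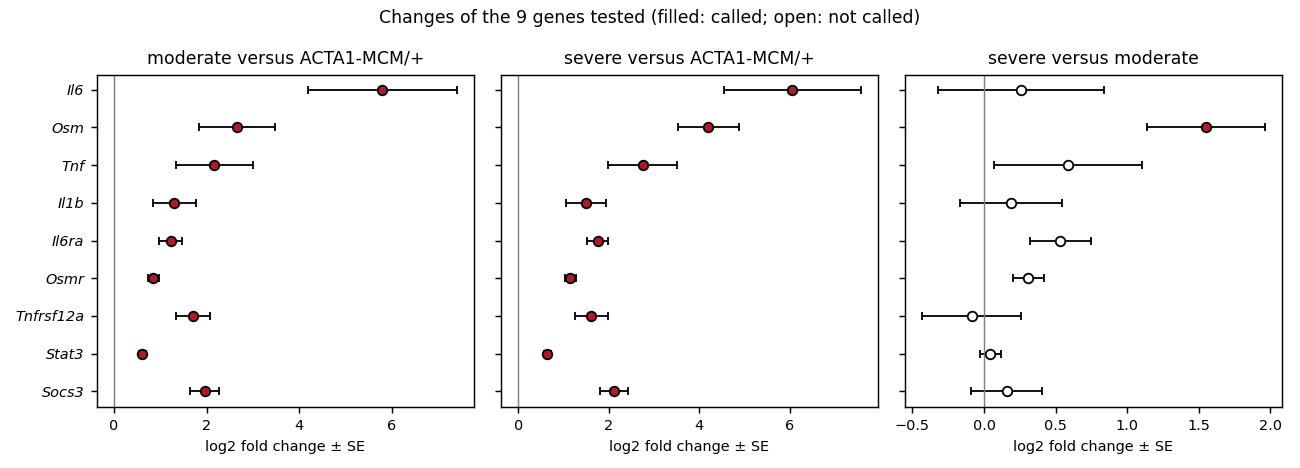
Log2 fold change with its standard error (edgeR, 4 groups in 1 fit) for the 9 tested genes in moderate and severe muscle against ACTA1-MCM/+ and in severe against moderate muscle; filled points were called, open points were not. All 9 points are filled in the first 2 panels and only Osm (1.55) is filled in the third. The fitted Il6 values in the first 2 panels rest on controls with no count and are no measure of size.

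Ratios within a library do not depend on scaling. The log2 ratio of Socs3 to Stat3 counts was -5.64, -5.53 and -5.41 in ACTA1-MCM/+, -5.29, -5.42 and -5.30 in FLExD/+, -3.69, -4.26 and -4.85 in moderate and -3.73, -4.17 and -4.40 in severe mice. Socs3 gained on Stat3 by 1.26 in moderate and 1.42 in severe muscle on the log2 scale (two-sided exact permutation p = 0.1 for each, the smallest that 3 mice against 3 allow). The ratio of Osmr to Il6st was -4.35, -4.17 and -4.58 in ACTA1-MCM/+, -4.40, -4.23 and -4.48 in FLExD/+, -3.36, -3.32 and -2.96 in moderate and -2.57, -2.75 and -2.81 in severe mice. The groups formed 3 separate levels, with differences of 1.16 in moderate, 1.66 in severe and 0.50 between severe and moderate muscle (exact permutation p = 0.1 for each). The ratio of Tnfrsf12a to Tnfsf12 was 0.80, 0.29 and 1.78 in ACTA1-MCM/+, 0.75, 1.13 and 0.27 in FLExD/+, 2.47, 2.63 and 1.62 in moderate and 1.91, 2.22 and 2.36 in severe mice. Moderate mouse 1331 fell below control mouse 1349, so the moderate difference of 1.28 overlapped (exact permutation p = 0.2), and the severe difference of 1.203 did not (exact permutation p = 0.1). Over the 12 tests of ratios between groups, no p could reach 0.05.

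**Figure D3:**
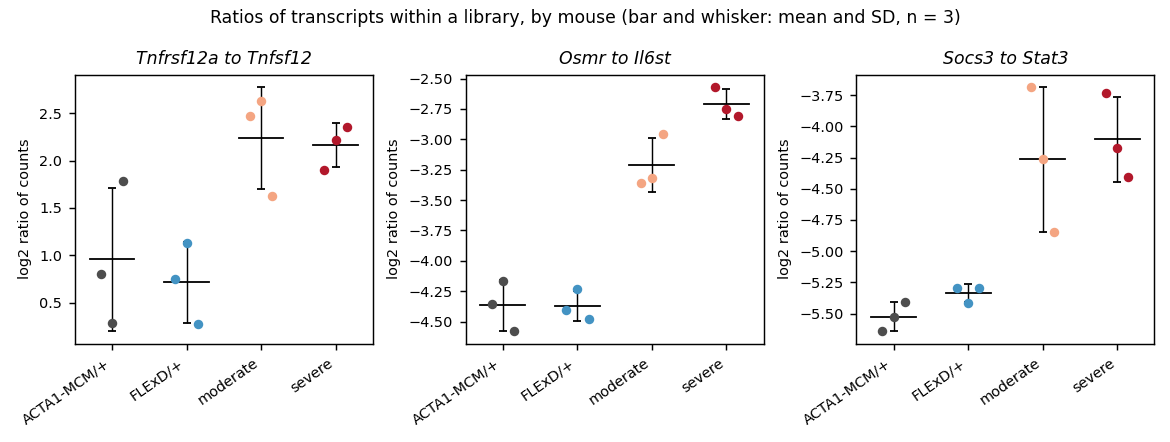
Log2 ratio of the counts of 2 transcripts in the same library, with 1 point per mouse and the mean and SD of 3 mice; the axes do not start at 0 because these are log ratios. Socs3 to Stat3 and Osmr to Il6st lie higher in all model mice than in all single-transgenic mice, and Osmr to Il6st also separates severe from moderate.

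Fewer of these genes differed between the models. Of the 9 tested genes, 1 was called higher in severe than in moderate muscle and 0 lower, where 17.6% of all tested genes were called higher and 18.8% lower. The gene was Osm, with a log2 fold change of 1.55 ± 0.41 (SE, adjusted p = 0.00645) and a depth-adjusted count ratio of 2.95 (interval 1.82 to 5.01). Osmr was higher in all 3 severe mice with a log2 fold change of 0.31 ± 0.11 (SE, adjusted p = 0.0296), below the fold threshold. Il6ra was also higher in all 3, with 0.53 ± 0.21 (SE, adjusted p = 0.0519), just missing the p threshold, and was called when the 2 groups were fitted alone (0.55). For Stat3 (0.04 ± 0.07 SE), Socs3 (0.16 ± 0.25 SE), Tnfrsf12a (-0.09 ± 0.34 SE), Il6 (0.26 ± 0.58 SE), Il1b (0.19 ± 0.35 SE) and Tnf (0.59 ± 0.52 SE), the groups overlapped and adjusted p were 0.368 to 0.852. With library size alone 7 of the 9 were called higher, beside 57.8% of all tested genes, so the count of 1 holds for values relative to the bulk of transcripts. On that scale Tnfrsf12a was 0.60 higher in severe muscle, a change of sign.

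Between FLExD/+ and ACTA1-MCM/+ muscle, 0 of the 9 genes were called by edgeR, DESeq2 or limma. Stat3 was the 1 gene with an unadjusted edgeR p under 0.05. Of all tested genes, 0% were called higher and 0.00600% lower. Of all tested genes, 4.01% were higher and 4.59% lower with no overlap between these groups. Among the 9 this held for 3, Stat3 and Socs3, which were higher in FLExD/+ (log2 fold change 0.18 ± 0.08 SE and 0.37 ± 0.35 SE), and Il1b, which was lower (-1.06 ± 0.65 SE). All 9 adjusted p were 1. Il6 had a count in 2 of 3 FLExD/+ mice and in no ACTA1-MCM/+ mouse, which is 4 counts in all.

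The 10 genes sit in pathways whose other genes were read from lists. Of 81 listed genes that are not among the 10, 75 were tested. In moderate muscle 38 were called higher and 8 lower (median log2 fold change 0.66), and in severe muscle 46 higher and 10 lower (median 0.87), where all tested genes had medians of 0.04 and 0.08. These calls stand beside 24.4% higher and 17.0% lower of all tested genes in moderate and 32.9% and 27.9% in severe muscle. With library size alone the counts were 57 higher and 1 lower in moderate and 66 higher and 2 lower in severe muscle. Under that scaling 52.5% and 4.51% of all tested genes were called higher and lower in moderate and 75.4% and 6.42% in severe muscle. The list counts with library size alone below are to be read beside these shares. Severe against moderate, 23 were called higher and 5 lower, beside 17.6% and 18.8% of all tested genes.

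On the IL-1 system and inflammasome list, 13 of 15 tested genes were called higher in moderate and 14 in severe muscle and 0 lower (medians 1.24 and 1.75), beside 24.4% and 32.9% of all tested genes called higher. Il1b, Il1rn, Il1r2 and Nlrp3 had under 10 counts in every single-transgenic library and entered the test through the models. Of the 10 listed genes with at least 10 counts in all of those libraries, 8 were called higher in moderate and 9 in severe muscle. Il1rn, which encodes the secreted antagonist of the IL-1 receptor, had 1, 0 and 3 counts in ACTA1-MCM/+, 106, 46 and 50 in moderate and 442, 383 and 271 in severe mice. Its depth-adjusted ratio to control was 33.8 (interval 13.003 to 125.3) in moderate and 130.8 (interval 50.9 to 480.7) in severe muscle, where the ratios of Il1b were 2.48 and 2.84. Control mouse 1349 held 3 of the 4 control counts, and without it the fitted log2 values of Il1rn went from 4.98 to 6.20 and from 6.93 to 8.17. Il1r1, the signaling receptor of IL-1, rose 1.88-fold (adjusted p = 0.000488) and 3.998-fold (adjusted p = 1.07e-07). Of inflammasome genes, Pycard, the adaptor, rose 6.53-fold and 9.95-fold, and Nlrp3, the sensor, had depth-adjusted ratios of 6.25 (interval 3.14 to 14.1) and 9.01 (interval 4.64 to 20.1).

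In the TNF and TWEAK list, 9 of 15 tested genes were called higher and 1 lower in moderate muscle and 12 higher and 1 lower in severe muscle (medians 0.67 and 1.39). Over all tested genes, 24.4% were called higher and 17.0% lower in moderate and 32.9% and 27.9% in severe muscle. Tnf is among the 15 and entered the test through the models. Of the 13 listed genes with at least 10 counts in every single-transgenic library, 7 were called higher in moderate and 10 in severe muscle. In each model 1 of the 13 was called lower. With library size alone the list had 14 higher and 0 lower in each model. Tnfrsf1b, the TNF receptor found mainly on immune and endothelial cells, rose from 4.66, 5.78 and 5.93 CPM in ACTA1-MCM/+ to 30.2, 24.2 and 26.7 in moderate and 53.7, 44.0 and 47.5 in severe mice. This is 4.95-fold (adjusted p = 6.85e-09) and 8.85-fold (adjusted p = 8.85e-11). Tnfrsf1a, the widely expressed TNF receptor, rose 1.97-fold (adjusted p = 8.14e-06) and 2.63-fold (adjusted p = 7.93e-08). Traf1, a signaling adaptor, and Cd163, a macrophage scavenger receptor that also binds TWEAK, rose 5.84-fold and 4.32-fold in severe muscle. Without control mouse 1349 the severe log2 value of Traf1 went from 2.55 to 3.31. Birc2, a ubiquitin ligase of the TNF receptor complex, was called lower in both models (log2 fold change -0.67 and -1.03), and with library size alone its values were -0.06 and 0.27.

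Of 13 tested NF-kB subunits and brakes, 5 were called higher and 1 lower in moderate and 9 higher and 1 lower in severe muscle (medians 0.31 and 0.66). All tested genes had 24.4% called higher and 17.0% lower in moderate and 32.9% and 27.9% in severe muscle. With library size alone the list had 12 higher and 0 lower in each model. Nfkb2, the subunit of the noncanonical pathway, rose 2.64-fold and 3.03-fold. Nfkbie, an inhibitor, and Nfkbiz rose 5.43-fold and 3.76-fold in severe muscle. Rela, the main transactivating subunit, was not called (log2 fold change 0.21 and 0.32), nor was the inhibitor Nfkbia (0.31 and 0.13). Nfkbib was called lower (-0.53 and -0.92), with values of 0.07 and 0.39 when library size alone was used.

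The IL-6 family lists split by direction. Of 5 tested ligands and soluble partners, 3 were called higher and 1 lower in moderate and 4 higher and 1 lower in severe muscle. Il6 and Osm are among them and entered the test through the models. Of the 2 listed genes with at least 10 counts in every single-transgenic library, 0 were called higher and 1 lower in moderate muscle. In severe muscle 1 of these 2 was called higher and 1 lower. Of all tested genes, 24.4% were called higher and 17.0% lower in moderate and 32.9% and 27.9% in severe muscle. Clcf1, cardiotrophin-like cytokine, was not among these 2, with a mean of 0.440 CPM in ACTA1-MCM/+, and rose 2.34-fold and 6.01-fold. Ctf1, cardiotrophin 1, was called lower (-0.75 and -1.39), with -0.15 and -0.09 on library size alone. Il11 had 0 to 3 counts in every library, too few to test, as were Cntf, Il27 and Ebi3. Of 7 tested receptors, Il6ra and Osmr were called higher in both models and Il27ra in moderate muscle, where Lifr and Cntfr were called lower. The calls of Il27ra and Cntfr in moderate muscle were lost without control mouse 1246 and that of Cntfr with library size alone (-0.24). Lifr, Cntfr and Il6st were called lower in severe muscle, and the list's medians were -0.01 and -0.41. With library size alone 5 receptors were called higher in severe muscle and 1, Cntfr, lower.

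Of 13 tested JAK-STAT3 relays and brakes, 3 were called higher and 2 lower in moderate and 4 higher and 3 lower in severe muscle (medians -0.11 and 0.13). These counts are near the shares over all tested genes. With library size alone they were 5 higher and 1 lower in moderate and 10 higher and 1 lower in severe muscle. Besides Socs3 and Stat3, the kinase Tyk2 rose 1.65-fold and 1.83-fold. Jak2, a kinase bound to gp130, had 59.8, 74.9 and 69.6 CPM in ACTA1-MCM/+, 32.9, 34.3 and 36.2 in moderate and 26.6, 26.0 and 27.8 in severe mice. It was called lower in both (log2 fold change -0.98 ± 0.10 SE, adjusted p = 1.43e-06 and -1.35 ± 0.10 SE, adjusted p = 2.14e-08), with -0.38 and -0.04 on library size alone, neither called. Jak1, another such kinase, was not called (-0.25 and -0.48), nor was Socs1, another inhibitor of the kinases (-0.04 and 0.54). Stat5b fell to 0.0902 times its control level in severe muscle (log2 fold change -3.47 ± 0.15 SE) and by 2.17 on the log2 scale with library size alone, while Stat5a was called lower in severe muscle (-0.52), a call lost without severe mouse 1079, and turned to 0.79 on that scale.

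Of 16 tested genes known to respond to STAT3, 11 were called higher and 1 lower in moderate and 10 higher and 1 lower in severe muscle. Over all tested genes, the shares were 24.4% higher and 17.0% lower in moderate and 32.9% and 27.9% in severe muscle. Of the 11 listed genes with at least 10 counts in every single-transgenic library, 7 were called higher and 1 lower in moderate muscle. In severe muscle 5 of these were called higher and 1 lower. With library size alone the list had 12 higher and 0 lower in moderate and 15 higher and 0 lower in severe muscle. The medians of the 16 were 1.41 and 1.58, or 1.01 and 1.58 with Saa3, which had no count in controls, at its lower bound. Timp1, an inhibitor of matrix metalloproteinases, rose 29.3-fold and 70.5-fold, Birc5, a mitotic survival factor, 4.57-fold and 15.4-fold, and Bcl3, a partner of NF-kB subunits that passed the count filter through the models, 4.25-fold and 7.53-fold. Cebpb, a transcription factor, was not called in moderate (log2 fold change -0.16) and was called lower in severe muscle (-1.46), with 0.45 and -0.16 on library size alone. These genes also respond to other signals, and macrophages and dividing cells express several of them.

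**Figure D4:**
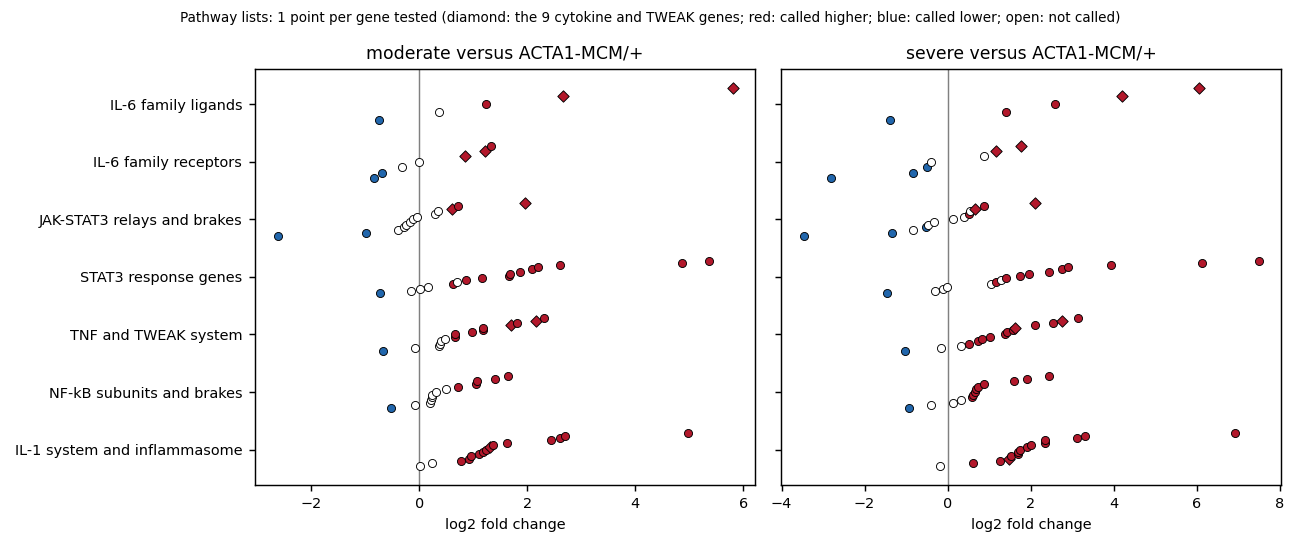
Log2 fold change (edgeR, relative to TMM scaling) of every tested gene on the 7 pathway lists, in moderate and severe muscle against ACTA1-MCM/+; diamonds are the 9 genes of the report, red points were called higher, blue points lower and open points were not called. The IL-1 list lies almost wholly to the right of 0, while receptors and relays of the IL-6 family lie on both sides.

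Markers of other cell types moved with these changes, and their part in the results was not tested. The marker calls stand beside 24.4% higher and 17.0% lower of all tested genes in moderate and 32.9% and 27.9% in severe muscle. Severe against moderate, 17.6% of all tested genes were called higher. With library size alone, 75.4% and 6.42% of all tested genes were called higher and lower in severe muscle. All 7 macrophage markers were called higher in both models and again in severe against moderate muscle, with summed levels of 93.9 to 118.5 CPM in ACTA1-MCM/+, 100.02 to 109.4 in FLExD/+, 473.3 to 602.4 in moderate and 1070 to 1160 in severe mice. Of 5 tested neutrophil markers, 2 were called higher in moderate and 4 in severe muscle, with sums of 2.70 to 2.89, 2.60 to 2.68, 4.44 to 8.42 and 11.04 to 12.7 CPM in the same order. The neutrophil-defining gene Ly6g had no count in any library and Mpo averaged at most 0.0214 CPM in any group. T cell sums were 0.466 to 0.819 in ACTA1-MCM/+, 0.690 to 1.01 in moderate and 2.52 to 4.03 CPM in severe mice, led by Cd4. The defining genes Cd3e, Cd3d and Cd3g were too low to test. B cell markers summed to 0.118 to 0.427 CPM over all libraries, and none was tested. Satellite cell markers, of which 3 of 4 were called higher, summed to 6.37 to 8.96 CPM in ACTA1-MCM/+, 18.8 to 25.6 in moderate and 45.7 to 57.7 in severe mice. Endothelial markers fell from 138.02 to 155.2 CPM in ACTA1-MCM/+ to 60.4 to 71.7 in severe mice, where all 4 were called lower, but with library size alone 1 was called higher and 1 lower. Fibro-adipogenic progenitor markers summed to 470.1 to 1013 CPM in ACTA1-MCM/+, 525.4 to 634.5 in FLExD/+, 729.5 to 853.9 in moderate and 932.7 to 1521 in severe mice, and of the 5, 2 were called higher in moderate muscle and 1 higher and 1 lower in severe muscle, where with library size alone all 5 were called higher. The myofiber markers, 6 of 7 called lower in moderate and 7 of 7 in severe muscle, had summed levels of at least 7998 CPM in every library, so the labelled tissue was present throughout.

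**Figure D5:**
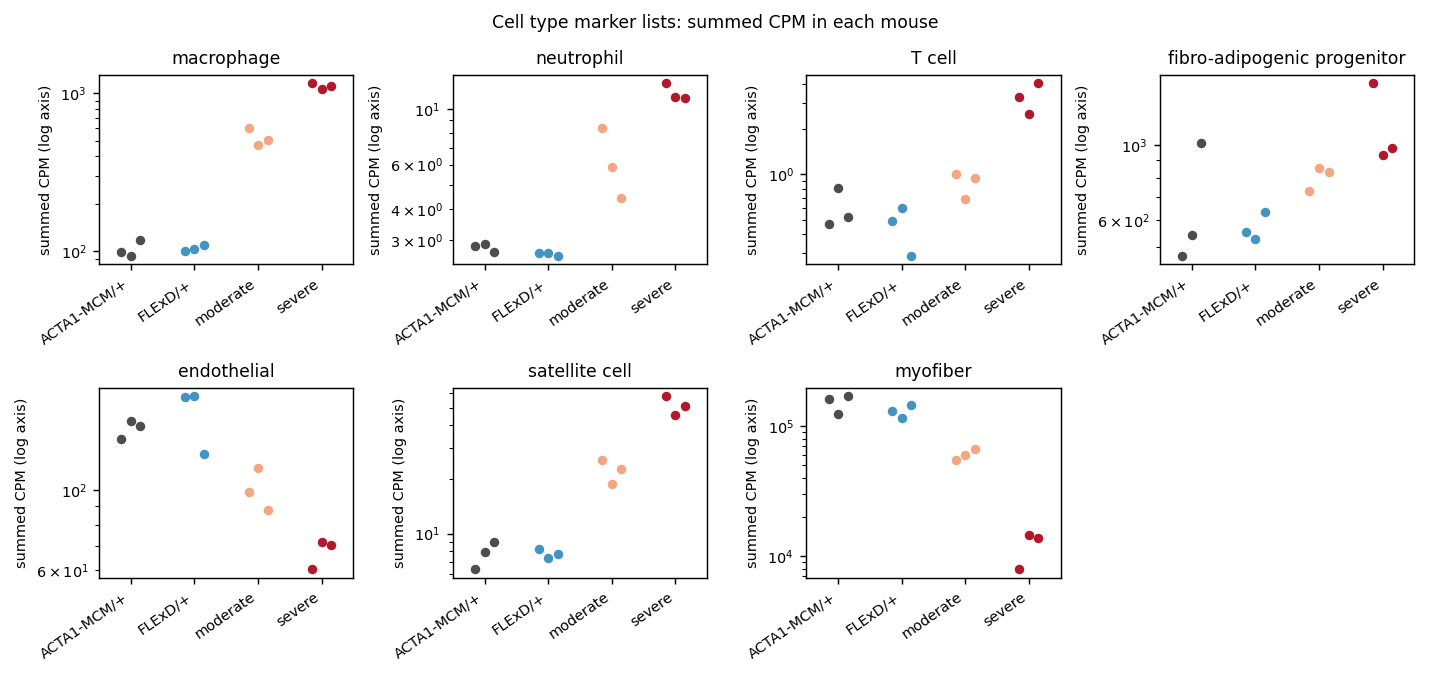
Summed level of each cell type marker list in each mouse (CPM, log axes), with 1 point per mouse. Macrophage, neutrophil and satellite cell sums are ordered ACTA1-MCM/+ and FLExD/+, moderate, severe with no overlap, and the myofiber sum runs the opposite way.

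The genes whose levels over the 12 mice were most like those of the 10 were found by Pearson correlation of log2 CPM with a prior count of 2, as a description, since all points share the group structure and the scaling. Stat3 was nearest to Rpn1 (r = 0.990) and Cdk6 (0.985), Osmr to Bnipl (0.988) and AI607873 (0.986), Il6ra to Hhipl1 (0.981) and Gmcl1 (0.980), and Socs3 to Hyou1 (0.976) and Cd83 (0.976). Tnfrsf12a was nearest to Atad2b (0.990) and Col4a1 (0.975), and Osm to Pstpip1 (0.992) and Dnm3os (0.989). For the rarer ligands the nearest genes were Slc26a11 (0.961) for Tnf, AC163347.1 (0.942) and D17Wsu104e (0.939) for Il6, and Necab1 (0.933) and Cd160 (0.928) for Il1b.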

How the data were processed

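The authors sequenced poly(A) libraries of gastrocnemius RNA as single reads, 1 library per mouse. They mapped the reads with RSEM 1.2.4, modified to call Bowtie, to a merged transcript annotation of mm10, and used TopHat 2.0.8b for the remaining reads. They deposited expected counts per gene without normalization, and TPM with no factor between libraries. The TPM are not a plain rescaling of these counts, since 164142 of 164417 entries with 0 counts have a TPM above 0. Between 31.8% and 36.2% of the deposited expected counts per library were not whole, and they were rounded.

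Groups were taken from the labels. Counts were tested with edgeR 4.0.16 in R 4.3.3 (filterByExpr, TMM, robust quasi-likelihood F-test, 4 groups in 1 fit), with Benjamini-Hochberg adjustment over 16679 genes and a standard error from the F statistic. The 5% adjusted p and log2 fold threshold of 0.5 made a call. Count intervals are exact binomial at 95%, and ratios within a library used counts plus 0.5 with a two-sided exact permutation test, which cannot go below 0.1. Depth was 23796902 to 29136403 counts per mouse. Positions came from GENCODE M21 (35982 of 37748 identifiers matched). The tests were tried on simulated counts first.

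The 10 genes and the lists were chosen with earlier results of these data known. Named besides them are fixed partners and, per list, up to 3 higher and 3 lower genes with the largest severe change and at least 50 counts in the higher group, with the 2 genes most correlated with each tested gene. Some genes that this rule names are not reported here. Rela, Nfkbia, Il27ra, Cntf, Il27, Ebi3, Fos, Pim1 and the marker genes named singly were added after their values were seen. Mouse numbers are not shared between groups. Alternatives were DESeq2 1.42.0, scaling by library size alone or by median-of-ratios factors, limma 3.58.1 on log2(TPM + 1) and log2(TPM + 0.1), other filters and thresholds, the 2 groups compared alone, each mouse left out, and, added after seeing the data, FLExD/+ as the control.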

Additional observations from a re-analysis of the deposited data

How the results depend on the processing

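No paired analysis was possible because no mouse number is shared between groups. In severe against control muscle, all 9 tested genes were called higher in every leave-one-out fit, and 157 of 159 values of single genes under all alternatives kept their direction and call. In moderate muscle 133 of 155 did and none changed sign. These tallies hold Il6, Osm, Tnf and Il1b, which entered the test through the models, so their kept direction carries no weight as support. Of the other 5 genes, only Stat3 lost its call in severe muscle, in 2 of 18 alternatives. In moderate muscle Stat3 lost it in 2 of 18 and Osmr in 1 of 18. The count of genes called higher in moderate muscle fell from 9 to 5 with limma on log2(TPM + 1), which left Il6, Osm, Tnf and Il1b uncalled (log2 values of 0.26, 0.15, 0.30 and 0.37, compressed by the added 1), and to 5 when the 2 groups were fitted alone, where 5 genes passed the filter. It was 6 to 9 with each mouse left out. The count in severe against moderate muscle rose from 1 to 7 with library size alone, 5 with limma on log2(TPM + 1) and 8 with limma on log2(TPM + 0.1), values that hold no factor between libraries, and to 2 with no filter, with the 2 groups alone and with no fold threshold. Osm was called in all of these, but it entered the test mainly through the severe libraries, so this carries no weight as support.

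Among the 10 genes, sign changes were limited to values not called in the reported fit. For severe against moderate muscle, Tnfrsf12a went from -0.09 to 0.60 with library size alone and 0.67 with limma at either pseudocount. With each mouse left out, it ran from -0.31 to 0.0795, Il6 from -0.24 to 0.75, Socs3 from -0.0730 to 0.51 and Il1b from -0.16 to 0.53, and the negative values of Il6 and Il1b came without moderate mouse 1331. For FLExD/+ against ACTA1-MCM/+, Tnf ran from -4.35 to 0.42, Osm from -3.12 to 2.28, Il6ra from -0.28 to 0.18, Osmr from -0.12 to 0.0126 and Tnfrsf12a from -0.71 to 0.0489 with each mouse left out. The cause of these was not tested.

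Over all tested genes, library size alone moved the share called higher and lower from 24.4% and 17.0% to 52.5% and 4.51% in moderate, from 32.9% and 27.9% to 75.4% and 6.42% in severe, and from 17.6% and 18.8% to 57.8% and 4.93% in severe against moderate muscle. With limma on log2(TPM + 1) they were 31.5% and 4.42%, 64.1% and 5.92%, and 48.2% and 3.77%. Between FLExD/+ and ACTA1-MCM/+, edgeR called 0 genes higher and 1 lower, DESeq2 called 4 and 3, and 638 had an unadjusted edgeR p under 0.05. With FLExD/+ as the control, chosen after seeing the data, 7 of the 9 genes were called higher in moderate and 8 in severe muscle, beside 24.3% and 33.0% of all tested genes.

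The limit for the ligands is depth. A library with 3 counts of a transcript reads 0.0676 to 0.155 CPM, and Il6, Osm, Lif and Tnf had at most 4 counts in every single-transgenic mouse. Scaling sets the other limit, since myofiber transcripts fell and each fold is relative to the TMM reference.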

Other observations

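Moderate mouse 1331 was the lowest of its group for 7 of the 10 genes (Il6, Lif, Osm, Tnf, Il1b, Socs3 and Tnfrsf12a), and for 33.3% of all tested genes. It was not the lowest for Stat3 (78.6 CPM), and for Osmr (23.9 CPM) and Il6ra (6.89 CPM) it was the highest. Its summed neutrophil markers were the lowest of the group (4.44 CPM, against 5.90 and 8.42), its macrophage markers lay between those of the others (509.3 CPM, against 473.3 and 602.4), and its Wfdc3 level was 68.0 CPM, against 91.8 and 69.1. This pattern was noticed in the values and was not tested.

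Fos, the immediate-early transcription factor on the STAT3 response list, was called higher in moderate (log2 fold change 2.61, adjusted p = 0.0041) and not in severe muscle (1.28, adjusted p = 0.0756), and Pim1, a kinase on the same list, was called lower in moderate (-0.72) and had -0.01 in severe muscle. On library size alone, Fos was called higher in both (3.22 and 2.58), and Pim1 was not called in moderate (-0.12) and was called higher in severe muscle (1.30). The Pim1 call in moderate muscle was lost without control mouse 1349 or moderate mouse 1308 or 1331. Without moderate mouse 1308 the moderate value of Fos was 1.85, and without moderate mouse 1308 or 1331 its severe value was called (1.28 and 1.27), through the shared spread of the fit. These genes were chosen after their values were seen. Severe against moderate, Fos had a log2 fold change of -1.33 (adjusted p = 0.0553), which was not called.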
